A study of Homo sapiens with 2 samples.

Results

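TRF2, the shelterin protein encoded by TERF2, was immunoprecipitated from HCT116, a human colorectal carcinoma cell line, and the peaks analysed here are those whose summits lay in the centromere bands of chromosomes 5 and 19. The bands run from 46.1 to 51.4 Mb on chromosome 5 and from 24.2 to 28.1 Mb on chromosome 19 of the assembly hg38. A peak was taken when the summit given in the authors' list fell between these limits, and no value of the peak entered that choice. Of the 24258 peaks in the list, 402 (1.66%) were members, 275 on chromosome 5 and 127 on chromosome 19. There was 1 immunoprecipitated library (antibody to TRF2) and 1 input library, sonicated chromatin taken without an antibody, both from formaldehyde-fixed HCT116 cells with no genotype change named in the labels. The peak list's name mentions a control siRNA, the labels mention none, and the use of an siRNA is therefore unsettled. With 1 library per group no difference between libraries could be tested, and every interval given here covers counting error only.

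TRF2 binds the double-stranded TTAGGG repeats at chromosome ends and keeps those ends from being treated as broken DNA. Centromeres, the sites where the kinetochore assembles, are built on alpha satellite, a short unit of DNA repeated in tandem over long distances. Most human chromosomes carry their own version of the array. Chromosomes 5 and 19 share with chromosome 1 a closely related version, so that short reads from these arrays are hard to tell apart. In hg38 the arrays are model sequences, and a masked version of the assembly distributed for read alignment replaces duplicated centromeric sequence on chromosomes 5, 14, 19, 21 and 22 by unknown bases. The sources used here name neither the version nor the rule for reads that match more than 1 place equally well. The sequences under the peaks were not analysed here.

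Both bands had the same layout, with summits on either side of a long central stretch that held none. On chromosome 5 no summit lay between 47307661 and 49599732, a distance of 2292 kb or 43.2% of the band. On chromosome 19 no summit lay between 24897804 and 27240956, a distance of 2343 kb or 60.1% of the band. The chromosome 5 stretch was thus 51.1 kb shorter than that of chromosome 19. Each stretch was taken as the longest distance between neighbouring summits of its band, so that its lack of summits follows from the choice and sets no limit on the density there. The rest of the band had 91.4 peaks per Mb on chromosome 5 and 81.6 on chromosome 19.

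**Figure D1:**
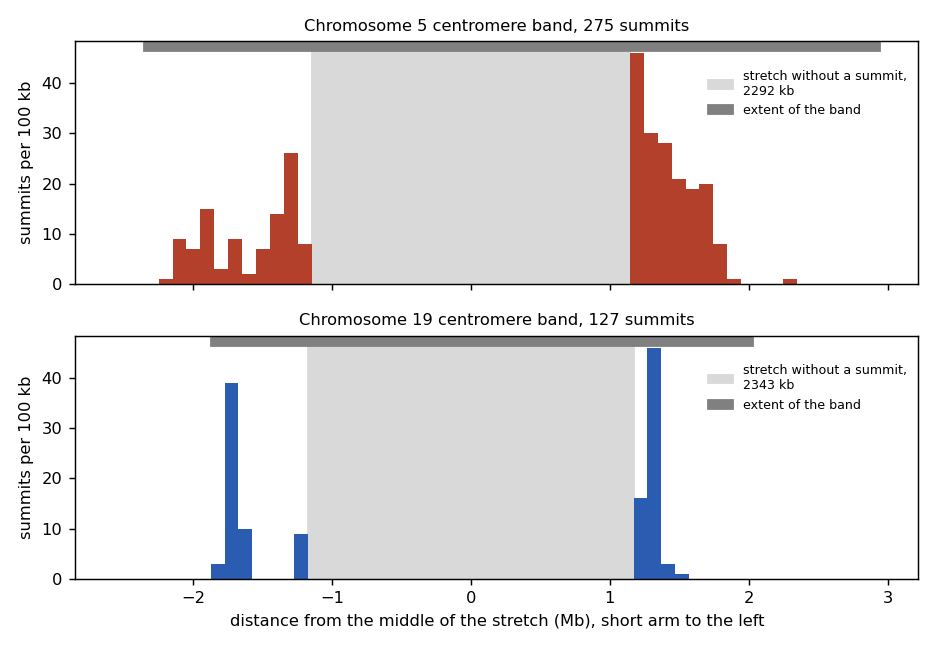
Summits per 100 kb along the centromere bands of chromosome 5 (top) and chromosome 19 (bottom), against the distance in Mb from the middle of the stretch without a summit; windows are counted outward from the ends of that stretch, which is shaded, and the dark bar marks the extent of the band. Chromosome 5 had 101 summits on its short-arm side and 174 on its long-arm side, and chromosome 19 had 61 and 66, with none inside the stretches of 2292 and 2343 kb.

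These were the longest such stretches in any centromere band that held summits. Between neighbouring summits the next longest were 1094 kb on chromosome 2 and 1040 kb on chromosome 3. Where a band edge was counted as an end, chromosomes 19 and 5 still came first, followed by chromosome 21 with 2066 kb, chromosome 14 with 1796 kb and chromosome 22 with 1455 kb. The 5 longest stretches by that count thus lay on the 5 chromosomes of the masked version named above. The part of masking, or of reads placed on another copy of the array, was not tested. With only peaks whose −log10 q reached 5, the stretches measured 2293 kb on chromosome 5 and 2410 kb on chromosome 19.

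**Figure D2:**
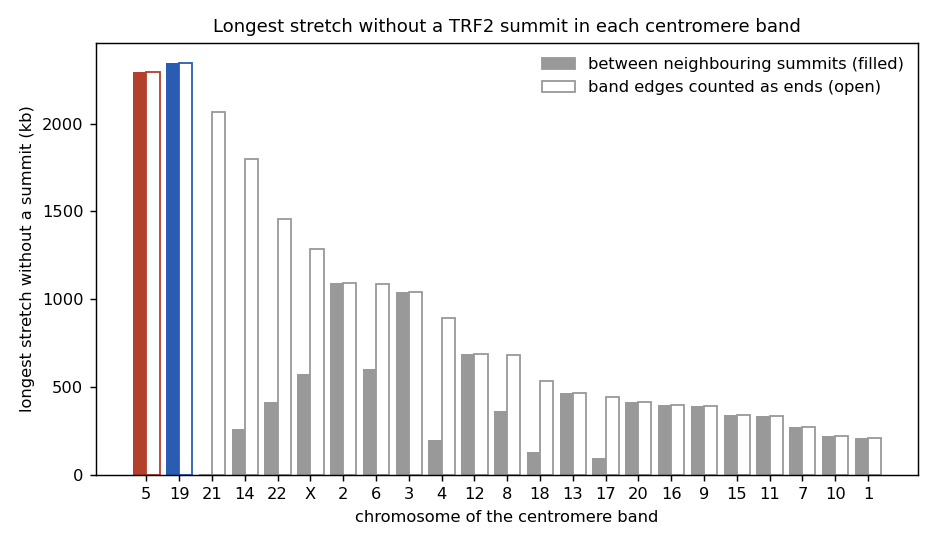
Longest stretch in kb without a TRF2 summit in each centromere band, between neighbouring summits (filled bars) and with band edges counted as ends (open bars); the band of Y held no summit and is not drawn. Chromosomes 5 (2292 kb) and 19 (2343 kb) exceeded the other bands by both measures, and chromosome 21 reached 2066 kb with its band edges counted.

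The band of chromosome 1, which holds the third array of this kind, looked different. It had 1986 summits in 3.4 Mb, and its longest stretch without a summit was 210.0 kb (6.18% of the band). The bands of chromosomes 5 and 19 together had 43.7 peaks per Mb (95% interval from the exact Poisson distribution, 39.5 to 48.2), against 584 per Mb (559 to 610) in the band of chromosome 1. The ratio of 5 and 19 together over 1 was 0.0748 (exact interval 0.0670 to 0.0833). It was 0.151 (0.135 to 0.168) with the 2 stretches left out of the length of 5 and 19. The length of chromosome 1 was kept whole, and the stretches were chosen from these same peaks, so the densities are not alike in kind. Against the other 22 centromere bands, chromosome 1 included, which had 177 per Mb (174 to 180), the ratio was 0.247 (0.223 to 0.273). It was 0.498 (0.450 to 0.550) without the stretches of 5 and 19, again with the other lengths kept whole. Chromosome arms had 1.22 peaks per Mb, so the bands of 5 and 19 were 35.7 times as dense (32.1 to 39.6). A density per Mb depends on how much of each array the assembly contains.

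Between the 2 bands, chromosome 5 had more peaks per Mb than chromosome 19. It had 51.9 per Mb (45.9 to 58.4) against 32.6 per Mb (27.1 to 38.7) on chromosome 19, a ratio of 1.59 (exact interval 1.29 to 1.98). With the stretches left out of the lengths the ratio was 1.12 (0.905 to 1.39), whose interval includes 1. The ratio was larger among strong peaks, defined by an authors' −log10 q that reached 5, which made up 30.0% of the whole list. Chromosome 5 had 76 strong peaks (27.6%, exact binomial interval 22.4% to 33.3%) and chromosome 19 had 7 (5.51%, 2.24% to 11.0%), a density ratio of 7.99 (3.69 to 20.5). Among the remaining peaks, 199 on chromosome 5 and 120 on chromosome 19, the ratio was 1.22 (0.968 to 1.54). Peaks lie close together within each band, and these intervals treat them as separate counts. The spread between libraries was not measured.

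The typical peak had the same fold on both chromosomes but a different depth. Fold, the authors' ratio of immunoprecipitated pileup to local input background at the summit, had a median of 3.89 on chromosome 5 (interval of the median 3.71 to 4.01, range 1.89 to 9.27). On chromosome 19 it had a median of 3.90 (3.76 to 3.90, range 2.76 to 9.02), against 4.06 over the whole list. Median pileups at the summit, in whole reads recovered from the deposited values, were 12 reads on chromosome 5 and 8 on chromosome 19. Over the whole list the median was 11 reads. The ranges were 5 to 138 reads on chromosome 5 and 5 to 34 on chromosome 19. The input background, in reads scaled to the immunoprecipitated library, had medians of 1.83 on chromosome 5 and 1.05 on chromosome 19. Its median over the whole list was 1.69. The lowest background in the list was 1.05, and at that minimum lay 47 peaks of chromosome 5 (17.1%) and 78 of chromosome 19 (61.4%), against 29.5% of the whole list.

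The minimum is a floor, and input at or below it was not resolved further. Among the peaks at the floor the median pileup was 7 reads on chromosome 5 and on chromosome 19. Fold there follows from the pileup alone, and 7 reads give a fold of 3.90. Peaks of the chromosome arms, 76.0% of them at the floor, also had a median pileup of 7 reads. In the upper part the shares of floor peaks were larger on chromosome 5, but counting error leaves a difference unsettled. A fold of 5 or more was held by 11 of 47 on chromosome 5 (23.4%, 12.3% to 38.0%) and 7 of 78 on chromosome 19 (8.97%, 3.68% to 17.6%). The intervals of these shares overlap. Strong peaks at the floor were 7 on chromosome 5 (14.9%, 6.20% to 28.3%) and 5 on chromosome 19 (6.41%, 2.11% to 14.3%). Those intervals overlap too. The same shares over all floor peaks of the list are not given here. The largest fold at the floor was 8.78 on chromosome 5 and 7.32 on chromosome 19. Among all members a fold of 5 or more, which 25.2% of the whole list reached, was held by 53 peaks of chromosome 5 (19.3%, 14.8% to 24.4%) and 12 of chromosome 19 (9.45%, 4.98% to 15.9%). A −log10 q of 1.3 or more, met by 79.3% of the list, was held by 215 peaks of chromosome 5 (78.2%) and 80 of chromosome 19 (63.0%). Both bands thus had a smaller share of peaks of fold 5 or more than the list as a whole. Chromosome 1 resembled neither band in depth, with a median pileup of 27 reads over a background of 6.20, a median fold of 3.69 and 51.4% strong peaks.

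**Figure D3:**
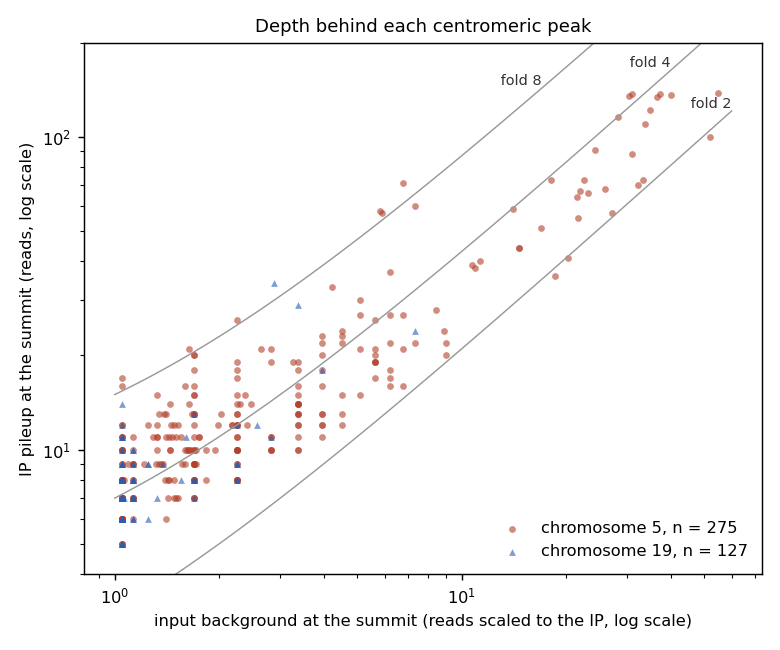
Immunoprecipitated pileup in reads against input background in reads scaled to the immunoprecipitated library, both at the summit and on log scales, for the 275 peaks of chromosome 5 (circles) and the 127 of chromosome 19 (triangles); lines mark folds of 2, 4 and 8. The chromosome 5 peaks extend to 138 reads over a background of 54.7, while 78 of the chromosome 19 peaks sit at the minimum background of 1.05.

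The deepest peaks of each band adjoined the stretch without summits, on the long-arm side of chromosome 5 and on the short-arm side of chromosome 19. A pileup of 30 reads or more, reached by 12.8% of the whole list, was found at 39 members, 38 on chromosome 5 and 1 on chromosome 19. Of the 38, 37 lay within 66.7 kb, between the summits 49599732 and 49666473 that begin at the long-arm end of the stretch. This block held 38 peaks in all, which is 13.8% of the chromosome 5 members and 49.7% of their summed summit reads. Their pileup ran from 24 to 138 reads (median 66.5) over an input background of 4.24 to 54.7 (median 21.8). Their median fold was 3.23 (range 1.89 to 9.27), and 33 of the 38 were strong. The block was thus deep in both libraries, with a median fold no larger than that of the band. Past it on the same side, 136 peaks had a median pileup of 12 reads, a median background of 1.89 and a median fold of 3.90.

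Within the block, the tallest peaks were not those of highest fold. The 6 peaks with 130 reads or more had folds of 2.49 to 4.32 and backgrounds of 30.5 to 54.7. The tallest had 138 reads, which was also the largest pileup in the other 22 centromere bands, the chromosome arms and the whole list. Whether pileups had an upper limit, and whether it held down the folds of the tallest peaks, was not tested. The 7 peaks with a fold of 5 or more lay within the part from 49611543 to 49621662 and had 30 to 71 reads over backgrounds of 4.24 to 7.33. The other 31 had folds of 1.89 to 4.32 over backgrounds of 8.91 to 54.7. Background is the divisor of fold, so a split by fold tends to split the backgrounds as well. The strongest member of chromosome 5, from 49618489 to 49618585, belonged to these 7, with a fold of 9.27, 71 reads and a −log10 q of 41.7. Peaks from 49613040 to 49613137 (fold 8.65, 58 reads) and from 49615623 to 49615859 (fold 8.43, 57 reads) lay on its short-arm side. The widest member, 1589 bp from 49601503 to 49603091, had 134 reads and a fold of 3.58. All 6 members wider than 500 bp lay in the block, against a median width of 95 bp on chromosome 5 and 97 bp on chromosome 19. The share of the whole list that is wider than 500 bp is not given here.

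On chromosome 19 the corresponding group was smaller and lay on the opposite side. It consisted of 9 peaks within 6.05 kb, with summits from 24891750 to 24897804, the last of which is the short-arm end of the stretch. In order along the chromosome the pileups were 24, 18, 34, 12, 29, 11, 8, 9 and 12 reads, and the folds were 3.0, 3.84, 9.02, 3.64, 6.84, 4.61, 3.52, 4.21 and 3.99. All 4 chromosome 19 members with 18 reads or more were in this group, and the other 118 had at most 14 reads (median 7). The background in the group ran from 1.37 to 7.33, and elsewhere in the band it was at most 2.82. The strongest member of chromosome 19, from 24894189 to 24894289, had a fold of 9.02, 34 reads and a −log10 q of 20.6. Towards the short arm the group was separated from the next summit, at 24448194, by 444 kb without a peak, the second longest such distance in the band.

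**Figure D4:**
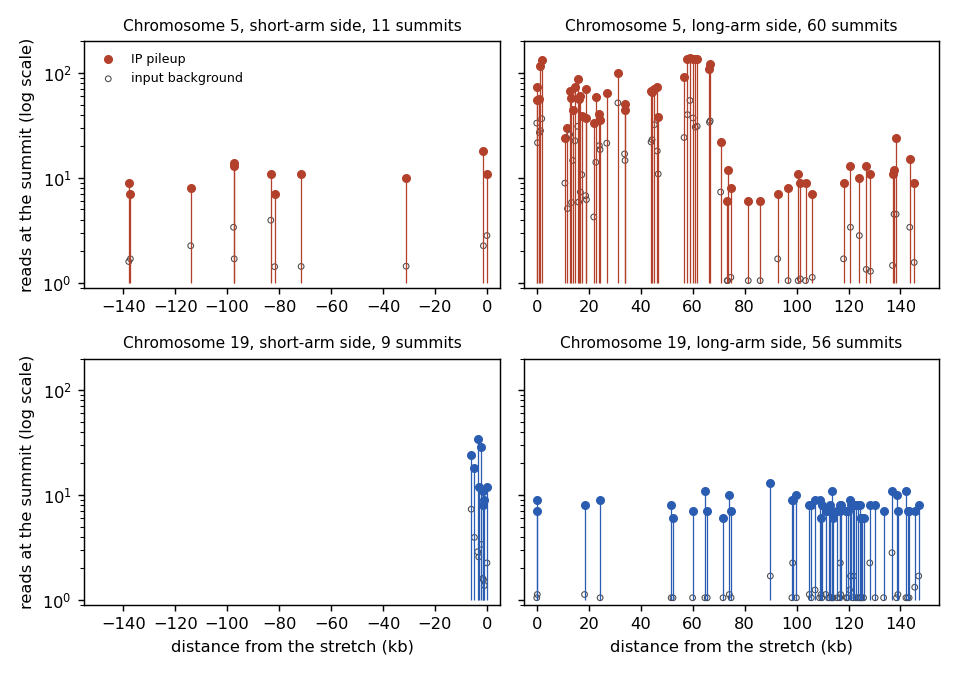
Immunoprecipitated pileup (filled points on stems) and input background (open points) at each summit in reads on a log scale, against the distance in kb from the stretch without summits, for chromosome 5 (top) and chromosome 19 (bottom) on the short-arm (left) and long-arm (right) sides, out to 150 kb. Chromosome 5 had 46 summits within 100 kb on its long-arm side, 37 of them with 30 reads or more, and chromosome 19 had 9 within 6.05 kb on its short-arm side, the tallest with 34 reads.

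The sides facing these groups had pileups near the medians of their bands, 12 reads on chromosome 5 and 8 on chromosome 19. Within 100 kb of the stretch, chromosome 5 had 8 peaks on its short-arm side, with 7 to 18 reads (median 11) and a median fold of 3.96. Chromosome 19 had 16 on its long-arm side, with 6 to 13 reads (median 8.5) and a median fold of 4.31. The 2 peaks that end the stretch on chromosome 5 had 11 reads over a background of 2.82 (fold 3.14) at the short-arm end and 73 reads over 33.3 (fold 2.16) at the long-arm end. On chromosome 19 they had 12 reads over 2.26 (fold 3.99) at the short-arm end and 7 reads over 1.05 (fold 3.90) at the long-arm end.

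In density and strong share, chromosome 5 differed less from the whole chromosome 19 band without the 100 kb past the long-arm end of its stretch. This alternative was chosen after seeing the data. The remaining 229 peaks had a median pileup of 11 reads, 1 had 30 reads or more, and 18.3% (13.5% to 24.0%) were strong, against 5.51% on chromosome 19. Their background was at its minimum in 18.3%, against 61.4% on chromosome 19. At called peaks, the higher pileup and background of chromosome 5 were therefore also present outside the block. A peak over a higher background needs a higher pileup to be called, so these values are not independent. Depth away from called peaks was not measured. The density ratio on that basis, over the whole chromosome 19 band, was 1.35. Without the 100 kb before its own stretch, a choice also made after seeing the data, chromosome 19 had 118 peaks. Its density was then 31.1 per Mb, against 44.0 for the 229 peaks of chromosome 5. Of the 118, 4.24% (1.39% to 9.61%) were strong and 66.1% lay at the minimum background.

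Most members, those of the deep block and of the chromosome 19 group included, lay in runs of close summits. Runs, whose definition was chosen after the summits were seen, were taken as summits no more than 20 kb from their neighbours. Chromosome 19 had 10 runs, 5 of them a single summit, and the 3 runs of 5 or more held 116 of its 127 peaks. The longest lists were 58 peaks from 27292690 to 27415374 and 49 from 24329831 to 24448194, one on each side of the stretch. These 2 runs were alike in depth, with median pileups of 8 and 7 reads, median folds of 3.90 and 3.76, and 3 and 2 strong peaks. Chromosome 5 had 22 runs, 4 of them a single summit, and the 9 runs of 5 or more held 248 of its 275 peaks. Its largest were 89 peaks from 49599732 to 49831376, which include the deep block, 55 from 49851545 to 50059002, 39 from 47042084 to 47170421, 21 from 46486700 to 46568284 and 20 from 50110080 to 50165300.

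Chromosome 19 peaks were thus packed into less of their band. The 3 fullest windows of 100 kb held 103 peaks on each chromosome, which is 37.5% of the chromosome 5 members and 81.1% of the chromosome 19 members. On chromosome 5 they began at 49600001 (45 peaks), 49700001 (30) and 47100001 (28), the last tied with the window at 49800001 (28) on the long-arm side. On chromosome 19 they began at 27300001 (54 peaks), 24300001 (39) and 24400001 (10). Windows with at least 1 summit were 22 of 53 on chromosome 5 and 9 of 39 on chromosome 19. Counted per 10 kb window that held a summit, the order of the bands turned round, and chromosome 5 had 0.708 times the peaks of chromosome 19.

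Outside the deep block and the group beside the chromosome 19 stretch, the other peaks among the 5 of highest fold in each band lay in its large runs. On chromosome 5 a peak from 47150206 to 47150422, on the short-arm side, had a fold of 8.78 with 17 reads over the minimum background. A peak from 49809345 to 49809428 had a fold of 8.35 with 21 reads over 1.63. On chromosome 19 the peak from 24413626 to 24413709 had a fold of 7.32 with 14 reads, and that from 24369723 to 24370033, the widest of the band at 311 bp, had a fold of 6.34 with 12 reads. The fifth, from 27305622 to 27305714 on the long-arm side, had a fold of 5.85 with 11 reads, tied with 2 others of the same run. The 3 chromosome 19 peaks named here lay over the minimum background.

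Neighbouring summits were 2713 bp apart at the median on chromosome 5 and 1424 bp on chromosome 19. Distances of at most 1 kb made up 26.3% of 274 on chromosome 5 and 42.1% of 126 on chromosome 19. Distances between summits were also set against multiples of the alpha satellite unit length. Of 397 summit pairs of chromosome 5 that were over 100 bp and up to 5 kb apart, 14.6% lay within 10 bp of a multiple, and of 361 pairs of chromosome 19, 13.9% did. An even spread gives 12.3%, chromosome 1 had 12.8% of 7067 pairs, and the other bands ran from 8.51% to 16.3%. Both chromosomes were inside that range. The other bands are centromere bands too, so the range cannot decide whether summits were spaced by the repeat unit. Pairs share summits, so these shares are a description.

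The members ended well before the long-arm edge of each band, while on the short-arm side of chromosome 19 peaks lay close to the edge on either side of it. The first member of chromosome 5 had its summit 138 kb inside the short-arm edge (5 reads, fold 2.93) and the last 693 kb inside the long-arm edge (6 reads, fold 3.41). The closest peaks outside lay 57.9 kb before the band (6 reads, fold 3.41) and 61.0 kb after it (8 reads, fold 4.39). On chromosome 19 the first summit was 30.5 kb and the last 491 kb inside, both with 5 reads and a fold of 2.93. The closest outside were 10.8 kb before the band (6 reads, fold 3.29) and 431 kb after it (10 reads, fold 5.37). The 2 Mb beyond the edges held 3 and 4 peaks on chromosome 5 and 2 and 1 on chromosome 19, on the short-arm and long-arm sides. The choice of the band edges therefore decided few members.

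Almost all members lay in parts of the bands where no gene is annotated. The RefSeq table of the same assembly lists 12 genes in the chromosome 5 band and 9 in the chromosome 19 band, all on the long-arm side. The first began at 50396192 on chromosome 5 and 27681072 on chromosome 19. Every chromosome 19 summit, and all but the last of chromosome 5, lay before these points. The share of all peaks near a gene is not given here. A single member lay in or within 3 kb of any of these genes. It was the last chromosome 5 peak, from 50707260 to 50707328, inside PARP8 (50665931 to 50846519), which encodes a member of the poly(ADP-ribose) polymerase family. Its fold was 3.41 with 6 reads and a −log10 q of 0.811, among the low values of the band, and it lay 41.4 kb from the lower end of the gene. EMB, which encodes the membrane glycoprotein embigin, had its nearest member 46.7 kb away (fold 3.90, 7 reads). ISL1, a homeobox transcription factor gene at the far edge of the chromosome 5 band, had none within 676 kb. On chromosome 19 the nearest gene to any member was the noncoding LOC105372345, 72.1 kb away (fold 2.93, 5 reads). Exons, introns and strand were not used here.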

How the data were processed

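The labels describe HCT116 chromatin fixed with formaldehyde, sonicated and immunoprecipitated for TRF2, with 1 immunoprecipitated and 1 input library. The submitters' processing notes name the builds hg38 and GRCh38 and the tools ChIPseeker 1.36.0, HOMER, MACS2 2.1.0 and Bowtie2 2.3.2, without settings. The deposited fold is a ratio of pileup to local input background at the summit. The authors also give a −log10 q-value and a −log10 p-value for each peak. The deposited score equals 10 times the −log10 p, cut to a whole number. No −log10 p was under 3.01. All these values are the authors' own and describe, order or select peaks of this list alone.

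Pileup and background were recovered by taking fold as (pileup + 1) / (background + 1) and p as the Poisson probability of more reads than the pileup. Whole reads were found for 100% of peaks (tolerance 0.001 on −log10 p, largest residual 0.00014), and the recovery was tested on simulated data. The depth behind each peak is this pileup, and the totals of the libraries were not used here. Bands came from circlize 0.4.16 (R 4.3.3). Coordinates are 1-based. Intervals are exact at 95%: Poisson for counts, Clopper-Pearson for shares and density ratios, and order statistics for medians. Values were computed in Python 3.11.15 with pandas 2.3.3, scipy 1.17.1 and numpy 2.4.6, and plotted with matplotlib 3.10.9. Genes came from the RefSeq table of GRCh38.p14.

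Named peaks are, per band, the 5 of highest fold, the tallest, the widest, the first and last summit and the closest outside. Also named per band are the 3 fullest 100 kb windows and up to 10 genes with a member within 3 kb. EMB, ISL1 and LOC105372345 have no member within 3 kb and are named outside this rule. The members, lists and rules were chosen with earlier results of these data known. The stretch without summits, its 100 kb borders, the 30-read limit and the deep block were chosen after their values were seen. Planned motif and identity comparisons of peak sequences were not analysed here.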

Additional observations from a re-analysis of the deposited data

How the results depend on the processing

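The counts depended most on the peak threshold. With a minimum −log10 q of 5, chromosome 5 kept 76 peaks and chromosome 19 kept 7 (density ratio 7.99, median folds 4.77 and 6.34), and with a minimum fold of 5 they kept 53 and 12 (ratio 3.25, median fold 5.85 on both, strong shares 69.8% and 58.3%). With a minimum −log10 q of 1.3, chromosome 19 kept 80 peaks, the median folds were 4.23 and 4.39, and 35.3% of chromosome 5 peaks were strong. Without the 100 kb past the long-arm end of the stretch 18.3% of chromosome 5 peaks were strong. The thresholds act on the same q and fold values as these medians and shares. For the omission the cause was not tested. The density ratio turned round, to 0.708, per 10 kb window with a summit. The 3 fullest windows held 25.1% and 62.2% at 50 kb, and 80.4% and 98.4% at 500 kb, on chromosomes 5 and 19. Joining summits within 500 bp left 239 peaks on chromosome 5 and 105 on chromosome 19, under the lower ends of the intervals of both counts (243 and 106) but within 1.5 times. Joining changed the ratio, median folds and strong shares by less than their intervals, as did membership by overlap or by the whole interval and, for the ratio, the length from first to last summit. No interval was shared between peaks. The long stretches ran from 2292 to 2305 kb on chromosome 5 and from 2343 to 2410 kb on chromosome 19 over all thresholds. The share of summit pairs near a multiple of the repeat length moved by less than its counting interval with a length 1 bp shorter or longer and with other tolerances and distances. On chromosome 19 it lay below the even share, by −0.93 and −0.70 percentage points, with distances up to 2 kb and 10 kb. With the other settings it lay above the even share there, by 0.53 to 3.20 percentage points. On chromosome 5 it lay above the even share with every setting, by 0.71 to 4.29 percentage points. The omission, and the thresholds applied to the stretches, were chosen after seeing the data. No paired analysis was possible because there was 1 library per group. No peak had under 5 reads, and weaker enrichment was not detectable in this list. Whether the stretches held enrichment that was not called was not tested. The comparison of peak sequences with another word length was not run.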
